A study of Mus musculus with 6 samples.

Results

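MHC class I molecules display peptides from inside the cell at its surface, and the genes described here encode their heavy chains, their light chain and the proteins that load the peptides. The rule named 10 genes by symbol: the class I heavy chains H2-K1, H2-D1, H2-T23, H2-Q4, H2-Q6 and H2-Q7, the light chain B2m, the peptide transporter genes Tap1 and Tap2, and Tapbp, which encodes tapasin. Of these, 9 are among the 11108 listed genes, and H2-Q4 was not analysed here. All 9 passed the filter on low values, a mean normalised read count of at least 10, which left 10846 genes in the test. A normalised read count is a gene's reads divided by the library's size factor, which scales for depth.

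The RNA-seq libraries came from hematopoietic stem cells, which live in bone marrow and renew all blood lineages. There were 3 libraries from Mcph1-/- mice, labelled as lacking microcephalin, which acts in chromosome condensation and in DNA repair, and 3 from wild-type (WT) mice. Both groups were untreated and were sorted by the same gate as lineage-negative, CD34-, CD150+ cells with Sca-1 and c-Kit, 200 cells to a library, and made into full-length cDNA with Smart-seq2. The labels give no age, sex or strain and do not describe the Mcph1 allele. They do not say whether each library is a separate mouse, and p-values therefore cover the spread between libraries only, which may be technical.

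A nascent class I heavy chain pairs with beta-2 microglobulin in the endoplasmic reticulum and is held near the TAP transporter by tapasin until TAP delivers a peptide that fits. The proteasome, with its interferon-inducible subunits, makes most of these peptides in the cytosol. Transcription of many class I genes uses a shared promoter layout: an enhancer bound by NF-kappaB, an interferon response element bound by IRF proteins, and a module whose boxes bind RFX, CREB/ATF and NF-Y and on which the coactivator NLRC5 assembles. Class I on blood stem cells lets T cells and natural killer cells inspect them.

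Reads recovered over the listed genes numbered 9464810 to 10455908 per library in Mcph1-/- and 8102605 to 8655123 in WT. Mcph1 itself was read in all libraries, at 427.8, 37.7 and 233.9 in Mcph1-/- and at 160.5, 341.0 and 34.4 in WT. These values overlap (log2 fold change 0.33, SE 1.25; limma adjusted p = 0.958), and a count per gene cannot show whether part of the gene was deleted, so it does not check the genotype. Among the stem cell sort markers, Ly6a, which encodes Sca-1, was read in all libraries. Slamf1, which encodes CD150, was at 65.7, 395 and 0.893 in Mcph1-/- and at 0, 224 and 497 in WT, so its transcript was at or near 0 in a library of each genotype.

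Of the 9 members, 8 lie in the MHC on chromosome 17 and B2m lies on chromosome 2 (mm10). H2-K1 (ENSMUSG00000061232) spans 33996017 to 34000347 and H2-T23 (ENSMUSG00000067212) spans 36029773 to 36032855, both on the minus strand. On the plus strand, H2-D1 (ENSMUSG00000073411) spans 35262730 to 35267499, H2-Q6 (ENSMUSG00000073409) spans 35424850 to 35430055 and H2-Q7 (ENSMUSG00000060550) spans 35439155 to 35443773. The loading genes are also on the plus strand: Tapbp (ENSMUSG00000024308) from 33915899 to 33929292, Tap1 (ENSMUSG00000037321) from 34187553 to 34197225 and Tap2 (ENSMUSG00000024339) from 34203527 to 34216321. B2m (ENSMUSG00000060802) spans 122147686 to 122153083 on the plus strand of chromosome 2. Exons of Tapbp overlap those of Zbtb22 by 149 bases on the same strand and of the antisense gene Gm19412 by 904 bases, those of Tap1 overlap Psmb9 by 212 bases on the other strand, and those of Tap2 overlap Gm20496 by 165 and Gm15821 by 533 bases, also on the other strand. The sources used here give no strand setting, so the counts of these 3 genes are uncertain.

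The promoters are shown because the class I genes share boxes there, and H2-Q6 and H2-Q7, neighbouring copies, differ in the match to 1 of them. Whether any box bears on the transcript levels was not tested. RefSeq promoters (GRCm38.p6) were matched for 9 of the 10 genes named by the rule, all but Tap2. Each stretch is 150 bases, written 5′ to 3′ on the strand of the gene, and ends 10 bases after the last CCAAT match or inverted CCAAT match in the promoter. Capitals mark matches, on either strand, to the CRE-like core TGACG, the Y box CCAAT, which reads ATTGG when inverted, the NF-kappaB core GGATTCC, the interferon response element (ISRE) core GAANNGAAA and the IRF site, a like repeat with 1 more base in its first half-site, which can overlap it. They cover chr17:35424660-35424809 (H2-Q6, plus strand), chr17:35439004-35439153 (H2-Q7, plus), chr17:34000325-34000474 (H2-K1, minus), chr17:35262906-35263055 (H2-D1, plus), chr17:36032739-36032888 (H2-T23, minus) and chr2:122147499-122147648 (B2m, plus).
H2-Q6: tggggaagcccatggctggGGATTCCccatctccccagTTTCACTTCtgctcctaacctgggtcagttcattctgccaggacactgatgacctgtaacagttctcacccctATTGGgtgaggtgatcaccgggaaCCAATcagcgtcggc
H2-Q7: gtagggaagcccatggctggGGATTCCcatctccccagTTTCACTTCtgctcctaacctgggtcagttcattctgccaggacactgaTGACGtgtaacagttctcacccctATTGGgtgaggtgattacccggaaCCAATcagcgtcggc
H2-K1: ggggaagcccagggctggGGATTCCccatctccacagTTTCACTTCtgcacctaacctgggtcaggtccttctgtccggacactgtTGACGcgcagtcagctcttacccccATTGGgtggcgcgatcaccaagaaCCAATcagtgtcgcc
H2-D1: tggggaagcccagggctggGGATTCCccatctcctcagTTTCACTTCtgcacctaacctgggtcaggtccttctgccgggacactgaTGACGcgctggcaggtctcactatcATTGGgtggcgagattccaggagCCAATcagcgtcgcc
H2-T23: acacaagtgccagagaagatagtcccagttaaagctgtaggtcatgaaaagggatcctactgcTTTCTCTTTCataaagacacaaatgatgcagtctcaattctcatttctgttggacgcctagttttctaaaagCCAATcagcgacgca
B2m: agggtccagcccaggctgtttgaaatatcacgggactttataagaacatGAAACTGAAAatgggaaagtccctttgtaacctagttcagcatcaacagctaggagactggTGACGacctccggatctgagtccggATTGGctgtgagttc

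H2-K1, H2-D1, H2-Q6 and H2-Q7 had, in the same order, the NF-kappaB core, the ISRE core, an inverted Y box and a direct Y box. H2-K1, H2-D1 and B2m had the CRE-like core with 20 bases between it and the inverted Y box, and H2-Q7 had 19 bases between. H2-Q6 did not have it: its stretch was 96.0% identical to that of H2-Q7, over 151 aligned columns, and the 4 substitutions from H2-Q7 to H2-Q6 were A3G, G92C, T127C and C131G, counted from 1 at the 5′ end of the H2-Q7 stretch, with G92C at the last base of the CRE-like core. The alignment of these 2 stretches also had 2 gap columns, and H2-Q6 had 1 more c directly after the NF-kappaB core. H2-T23 matched the IRF site and 1 direct Y box, without the CRE-like core or an inverted Y box. Its stretch was 47.7% to 52.5% identical to those of the other 4 heavy chains shown. The core and the inverted Y box at a spacing of 18 to 22 bases occurred in 0.268% of all 32851 RefSeq promoters (88 of them), and 4 of the 9 matched genes had it; this spacing was chosen after the sequences were seen. Alone, the CRE-like core occurred in 20.8% of all promoters, the Y box in 37.4%, the NF-kappaB core in 3.79%, the ISRE core in 7.52% and the IRF site in 3.44%. A match describes the letters and does not show that a factor binds.

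**Figure D1:**
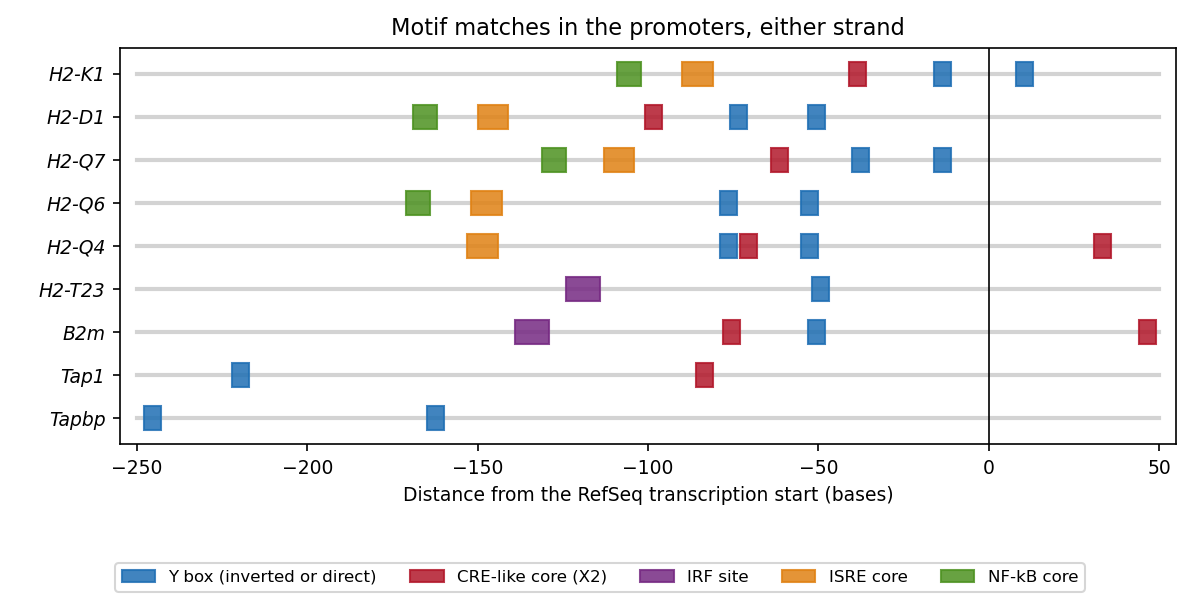
Matches to 5 short motifs in the 300-base promoters of 9 genes, drawn by distance from the RefSeq transcription start in bases, with 1 line per gene and 1 colour per motif. H2-K1, H2-D1, H2-Q7 and B2m have the CRE-like core shortly before an inverted Y box. H2-Q4 has the core between an inverted and a direct Y box, and H2-Q6 has the Y boxes without it.

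The comparison asked how the transcripts of these genes differ between Mcph1-/- and WT stem cells. Of the 9 genes, 7 had lower mean log2 values in Mcph1-/-, while Tap1 and Tap2 had higher ones. The lowest values relative to WT were those of the nonclassical heavy chains H2-Q6 and H2-T23 and of Tapbp. B2m and the classical heavy chains H2-K1 and H2-D1 differed by small amounts. By limma on log2(value + 1), with Benjamini-Hochberg adjustment over all genes and a threshold of 0.05, 0 members passed, against 0.0369% of all tested genes (4 of 10846) and 0.0277% that passed as lower in Mcph1-/-. At an unadjusted p under 0.05 there were 3, against 7.71% of all tested genes, and all 3 were lower, against 3.55% lower. edgeR's quasi-likelihood test also called 0 of the 9, against 0.0184% of all tested genes. It had 3 members at an unadjusted p under 0.05, against 593 of all 10846 tested genes. DESeq2 called 2, H2-Q6 and H2-T23, both lower, against 2.19% of all genes in either direction and 1.2% lower.

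In 4 members, H2-Q6, H2-T23, Tapbp and B2m, all Mcph1-/- libraries lay below all WT libraries, against 6.8% of all tested genes. The opposite order occurred in 0 members, against 7.4% of all tested genes. The median log2 fold change (Mcph1-/- over WT) was -0.21 over the 9 members and 0.08 over all tested genes, of which 46.2% had a negative value. In libraries of sorted cells, fewer cells of a kind and less RNA per cell cannot be told apart.

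**Figure D2:**
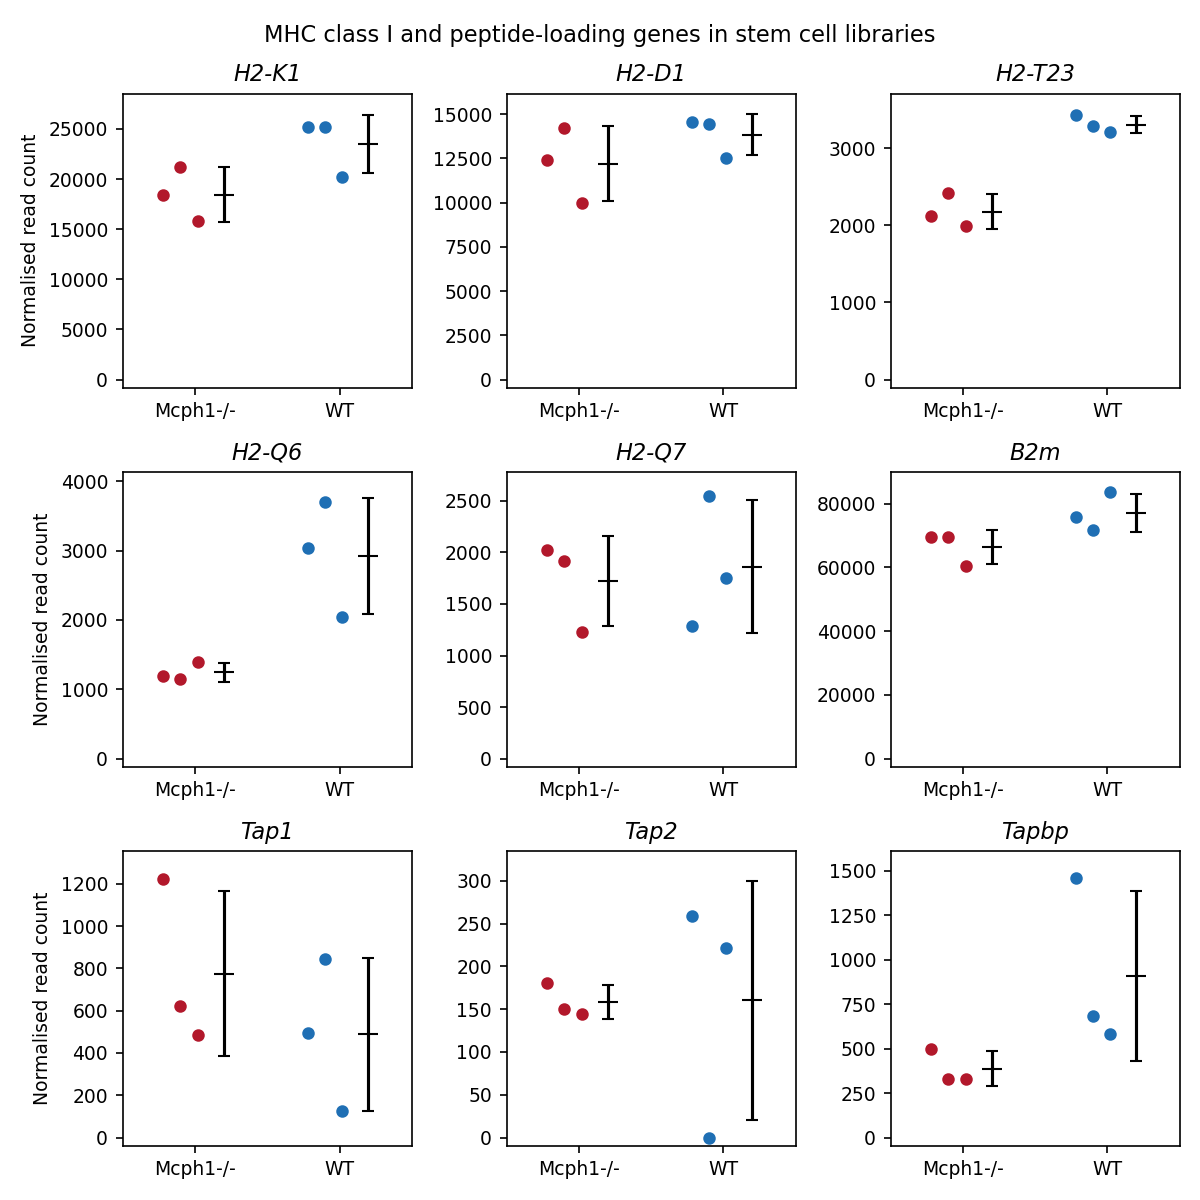
Normalised read count of each of the 9 genes by library, with 3 Mcph1-/- libraries left of 3 WT libraries in each panel. Points are libraries, and the bar beside them is the mean with its SD. H2-T23, H2-Q6, B2m and Tapbp have all Mcph1-/- points below all WT points, while the groups overlap in the other 5.

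H2-Q6 encodes a nonclassical heavy chain of the Qa-2 family. Its normalised read count was 1186, 1144 and 1397 in Mcph1-/- and 3032, 3700 and 2036 in WT. The Mcph1-/- libraries were close to each other and the groups did not overlap. The log2 fold change was -1.20 (SE 0.26; 95% interval -1.80 to -0.60; limma adjusted p = 0.478), or 0.436 of the WT level on that scale. By DESeq2 it was -1.24 (SE 0.26; adjusted p = 2.5e-04).

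H2-T23 encodes Qa-1, which presents signal peptides of other class I chains and is read by the CD94/NKG2 receptors of natural killer cells. It stood at 2126, 2425 and 1987 in Mcph1-/- and at 3428, 3288 and 3209 in WT. The WT libraries were close together (coefficient of variation 3.35%), and every Mcph1-/- library was below them. For H2-T23 the log2 fold change was -0.61 (SE 0.17; 95% interval -1.003 to -0.21; limma adjusted p = 0.589). By DESeq2 it was -0.60 (SE 0.15; adjusted p = 0.0045).

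The other Qa-2 family member, H2-Q7, had 2028, 1912 and 1225 in Mcph1-/- and 1283, 2552 and 1753 in WT. The highest library was WT, the lowest Mcph1-/-, and the groups overlapped. The log2 fold change was -0.09 (SE 0.32; 95% interval -0.82 to 0.64; limma adjusted p = 0.955), and its sign turned without Mcph1-/- replicate 3 (0.14) or WT replicate 2 (0.16). H2-Q6 and H2-Q7 are close copies, and how the counting treated reads that match both is not known, so each value is uncertain. Of all stretches of 150 bases, the read length, in the annotated H2-Q6 transcripts, 5.99% also occur in H2-Q7 and 0 in other genes, and 5.90% of those of H2-Q7 occur in H2-Q10, H2-Q6 or H2-Q5.

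Summed, H2-Q6 and H2-Q7 had 3214, 3056 and 2622 in Mcph1-/- and 4315, 6252 and 3789 in WT, with no overlap. Any reads that the counting dropped for matching several genes are missing from this sum. The log2 fold change of this sum, which does not depend on how reads were divided between the copies, was -0.66 (SE 0.22; limma adjusted p = 0.626), and by DESeq2 -0.69 (SE 0.22; adjusted p = 0.040). H2-Q6 made up 36.9%, 37.4% and 53.3% of this sum in Mcph1-/- and 70.3%, 59.2% and 53.7% in WT. The highest Mcph1-/- library came within a point of the lowest WT library. The mean share was 42.5% ± 9.31 in Mcph1-/- and 61.1% ± 8.43 in WT (SD, n = 3 each; two-sided exact permutation p = 0.1, and no smaller p exists for 3 against 3 libraries).

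H2-K1, the classical heavy chain of the K locus, had 18371, 21191 and 15802 in Mcph1-/- and 25166, 25161 and 20174 in WT. A single library of each group, Mcph1-/- replicate 2 and WT replicate 3, overlapped. For H2-K1 the log2 fold change was -0.35 (SE 0.15; 95% interval -0.71 to 0.0046; limma adjusted p = 0.652).

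H2-D1, the classical heavy chain of the D locus, had 12388, 14236 and 10006 in Mcph1-/- and 14574, 14459 and 12512 in WT. Mcph1-/- replicate 2 reached the WT range and the other 2 Mcph1-/- libraries lay below it. For H2-D1 the log2 fold change was -0.19 (SE 0.16; 95% interval -0.56 to 0.18; limma adjusted p = 0.749), and it was -0.057 without Mcph1-/- replicate 3 and -0.31 without Mcph1-/- replicate 2. Summed over the 5 heavy chains, the value was 36100, 40909 and 30417 in Mcph1-/- and 47482, 49158 and 39683 in WT, or -0.35 as log2 fold change (SE 0.15; limma adjusted p = 0.644).

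B2m, the invariant light chain of all class I molecules, was the most abundant member, ranking 2 or 3 among all listed genes in every library. It had 69476, 69545 and 60279 in Mcph1-/- and 75799, 71664 and 83525 in WT. The groups did not overlap, but the nearest libraries differed little. For B2m the log2 fold change was -0.21 (SE 0.12; 95% interval -0.48 to 0.05; limma adjusted p = 0.666). On the linear scale that interval is 0.718 to 1.04 of the WT level.

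Tapbp encodes tapasin, which bridges class I molecules to TAP and edits the peptides they bind. It had 499, 331 and 331 in Mcph1-/- and 1457, 684 and 582 in WT. WT replicate 1 stood far above the others, and the groups did not overlap. For Tapbp the log2 fold change was -1.13 (SE 0.45; 95% interval -2.16 to -0.10; limma adjusted p = 0.637), and -0.73 without WT replicate 1.

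Tap1, a subunit of the peptide transporter, had 1221, 621 and 485 in Mcph1-/- and 495, 845 and 125 in WT. Mcph1-/- replicate 1 was the highest and WT replicate 3 the lowest, and the groups overlapped. For Tap1 the log2 fold change was 0.94 (SE 0.72; 95% interval -0.71 to 2.59; limma adjusted p = 0.727), and 0.15 without WT replicate 3.

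Tap2, the partner subunit, had 181, 150 and 145 in Mcph1-/- and 259, 0 and 222 in WT. The 0 in WT replicate 2 allows up to 3 reads, a normalised read count of 3.09, by counting error only. The other 2 WT libraries were above every Mcph1-/- library. On the log2 scale the difference was 2.04 (SE 2.12; limma adjusted p = 0.798) and rests on that 0: it was -0.60 without WT replicate 2, and the group means were 158 ± 19.4 in Mcph1-/- and 160.3 ± 140 in WT (SD, n = 3 each).

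**Figure D3:**
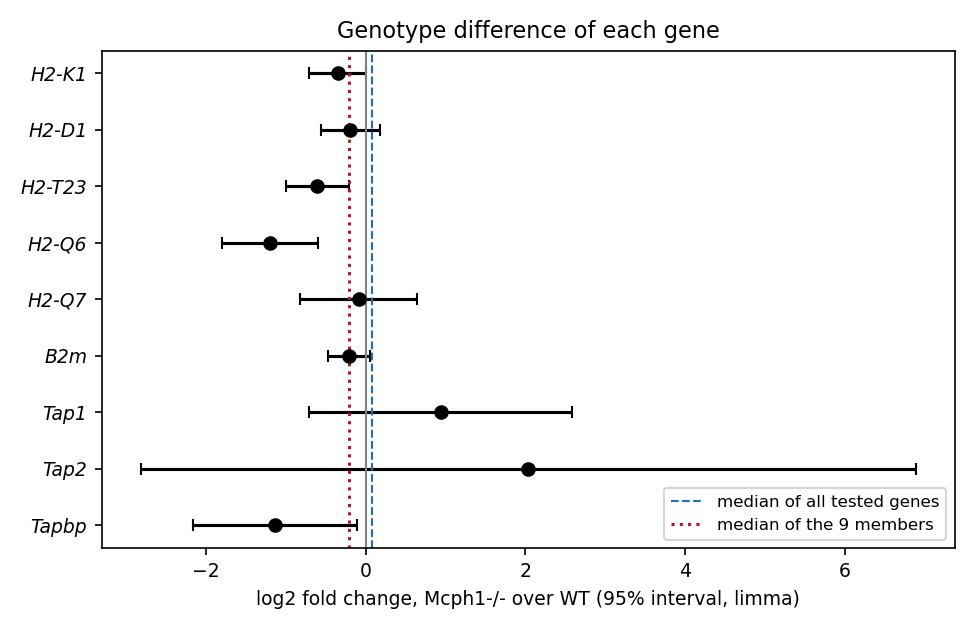
Log2 fold change (Mcph1-/- over WT) of the 9 genes with the 95% interval from limma, beside the median of all tested genes (0.08, dashed) and of the 9 genes (-0.21, dotted). The intervals of H2-T23, H2-Q6 and Tapbp lie below 0 before adjustment for the number of genes, and those of Tap1 and Tap2 are the widest.

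Levels of different genes were compared per kb of exonic length, from the GENCODE basic transcripts. In Mcph1-/- the normalised read count per kb averaged 77248 for B2m, 11151 for H2-K1, 5809 for H2-D1, 1480 for H2-T23, 1121 for H2-Q7, 596 for H2-Q6, 263 for Tap1, 134 for Tapbp and 46.0 for Tap2. In WT it averaged 89530 for B2m, 14199 for H2-K1, 6588 for H2-D1, 2247 for H2-T23, 1402 for H2-Q6, 1213 for H2-Q7, 313 for Tapbp, 165 for Tap1 and 46.6 for Tap2. Neighbours in these orders whose libraries overlapped were Tap1 and Tapbp in both genotypes, and H2-Q6 and H2-Q7, and Tap1 and Tap2, in WT. H2-Q7 stood at 404 in Mcph1-/- and 437 in WT per kb of all annotated transcripts, whose exons are longer, and then stood behind H2-Q6 in both genotypes.

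B2m per kb was 3.97, 3.51 and 4.09 times the sum of the heavy chains in Mcph1-/- and 3.29, 3.003 and 4.33 times in WT. These ratios overlapped (two-sided exact permutation p = 0.6). Per kb of all annotated transcripts they were 6.29, 5.55 and 6.43 in Mcph1-/- and 5.14, 4.71 and 6.83 in WT, which also overlap. Among the heavy chains, H2-K1 held 54.6%, 55.6% and 55.8% of the level per kb in Mcph1-/- and 56.8%, 54.8% and 54.3% in WT, a share within the spread between libraries. H2-D1 held 28.7% ± 0.843 in Mcph1-/- and 25.7% ± 0.882 in WT, H2-T23 7.38% ± 0.433 and 8.82% ± 0.840, and H2-Q6 3.03% ± 0.791 and 5.39% ± 1.02 in the same order (SD, n = 3 each; two-sided exact permutation p = 0.1 for each of these 3). Groups did not overlap for these 3 shares, of the 5 compared. The 5 shares are parts of a single total, so a lower share of some chains raises the others, and they are not separate results. The level of H2-D1 itself was not higher in Mcph1-/- (log2 fold change -0.19, with overlapping groups). Per kb of all annotated transcripts the H2-Q6 share was 4.78% ± 1.23 in Mcph1-/- and 8.46% ± 1.58 in WT (SD, n = 3 each), again without overlap. The 9 genes together took 1.24%, 1.30% and 1.08% of the reads of all listed genes in Mcph1-/- and 1.43%, 1.41% and 1.42% in WT (two-sided exact permutation p = 0.1).

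**Figure D4:**
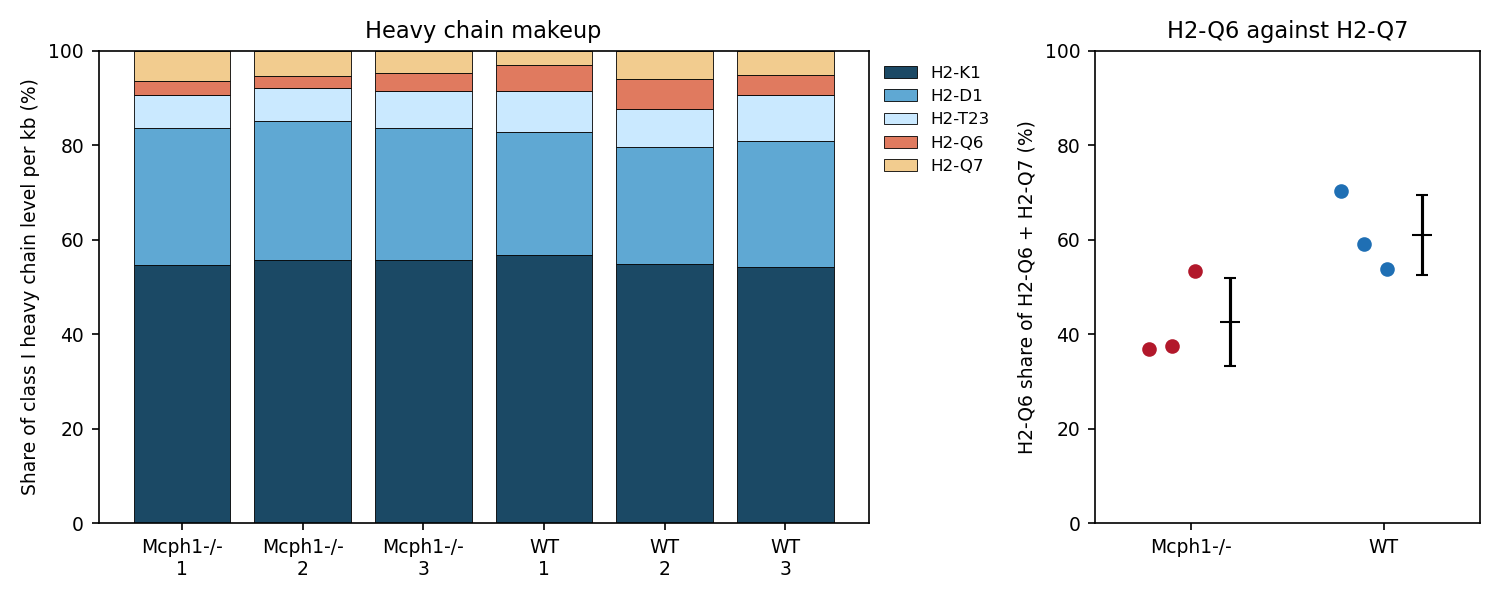
Left, the share of each of 5 class I heavy chains in their summed level per kb (%), 1 bar per library. Right, H2-Q6 as a share of the H2-Q6 and H2-Q7 reads (%), with points for libraries and the mean with its SD beside them. H2-K1 holds 54.3% to 56.8% in every library, and the H2-Q6 share is 36.9% to 53.3% in Mcph1-/- and 53.7% to 70.3% in WT.

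Across the 6 libraries the heavy chains H2-K1 and H2-D1 varied together (Pearson r = 0.934 on log2 values, n = 6), as did H2-K1 and H2-T23 (0.870) and H2-T23 and H2-Q6 (0.863). H2-Q6 and H2-Q7 did not (0.144), and Tap1 and Tap2 had -0.343. These values describe libraries that also share depth and genotype. The genes most like the mean pattern of the 9 members, by Pearson r over 6 libraries among 9947 genes, were Pura (0.981), Cdc40 (0.979), Mef2d (0.975), Obsl1 (0.969) and Ezh1 (0.962). That pattern was lowest in WT replicate 2, where Tap2 is at 0. Without Tap2, an alternative added after the values were seen, they were Lrpap1 (0.993), Gucy1a1 (0.985), Dynlt1-ps1 (0.984), Gemin4 (0.983) and Safb2 (0.980). Both lists take the highest of 9947 values over 6 libraries, where a high r can occur without any link. Whether these genes share regulation with the members was not tested.

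Other genes of antigen presentation were counted from 4 lists, and 0 of them passed by limma over all genes. An unadjusted p under 0.05 was found for 1 of 8 other class I genes, 2 of 13 peptide supply genes, 2 of 21 regulators and 1 of 10 class II genes, against 7.71% of all tested genes. Of 17 other class I and class I-like genes 8 were tested, 6 of them lower and 2 higher (median log2 fold change -0.31). Fcgrt, the neonatal Fc receptor chain, had -1.72 (SE 0.65; limma adjusted p = 0.626), with 121, 453 and 199 in Mcph1-/- and 590, 453 and 1474 in WT. H2-T10 had 2.27 (SE 2.001), Hfe, the iron regulator, -1.97 (SE 2.56) and Cd1d1, which presents lipids, 0.83 (SE 1.16), each with overlapping groups.

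Of 14 peptide supply and loading factors 13 were tested, and 7 were higher and 6 lower (median 0.20). The immunoproteasome subunit Psmb8 had 11644, 10942 and 8594 in Mcph1-/- and 13926, 12806 and 12862 in WT, or -0.36 as log2 fold change (SE 0.15; limma adjusted p = 0.644). Psmb10, another such subunit, had 3620, 3945 and 3979 in Mcph1-/- and 5926, 5214 and 4092 in WT, or -0.38 as log2 fold change (SE 0.18; limma adjusted p = 0.662). Both of these genes were lower in every Mcph1-/- library than in any WT library. Of the 13 tested genes 2 had this order and 0 the opposite one, against 6.8% and 7.4% of all tested genes. Groups overlapped for the proteasome activator genes Psme1 (log2 fold change -0.24) and Psme2 (0.20). Psmb9 was the gene of this list not analysed here. Tapbpl, a tapasin-related peptide editor, had 738, 498 and 212 in Mcph1-/- and 335, 0 and 0 in WT, and the chaperone Calr had 0.48 (SE 0.31).

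Of 22 regulators of class I transcription 21 were tested, and 12 were lower and 9 higher (median -0.06). Nlrc5, the class I coactivator, had 425, 289 and 307 in Mcph1-/- and 163, 382 and 202 in WT, which overlap. Irf2, an interferon regulatory factor, had -0.61 (SE 0.23) and Rfx5, a subunit of the RFX complex, -1.19 (SE 0.70). These 2 of the 21 regulators were lower in every Mcph1-/- library than in any WT library, against 6.8% of all tested genes. The opposite order occurred in 1 regulator, Ifngr1, against 7.4% of all tested genes. Ifngr1, a chain of the interferon-gamma receptor, had 1806, 2412 and 2064 in Mcph1-/- and 1606, 403 and 1036 in WT, or 1.25 as log2 fold change (SE 0.47; limma adjusted p = 0.626). Jak2 had -1.23 (SE 0.77).

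Of 11 class II presentation genes 10 were tested, and 8 were lower and 2 higher (median -0.50). H2-Ob had -5.51 (SE 2.34), with 0 reads in a pair of Mcph1-/- libraries, H2-Ab1 -0.59 (SE 0.26), the invariant chain Cd74 -0.77 (SE 0.35) and the peptide exchange subunit H2-DMb1 -0.55 (SE 0.27). Their summed normalised read count was 9078 to 12045 in Mcph1-/- and 12991 to 19338 in WT.

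**Figure D5:**
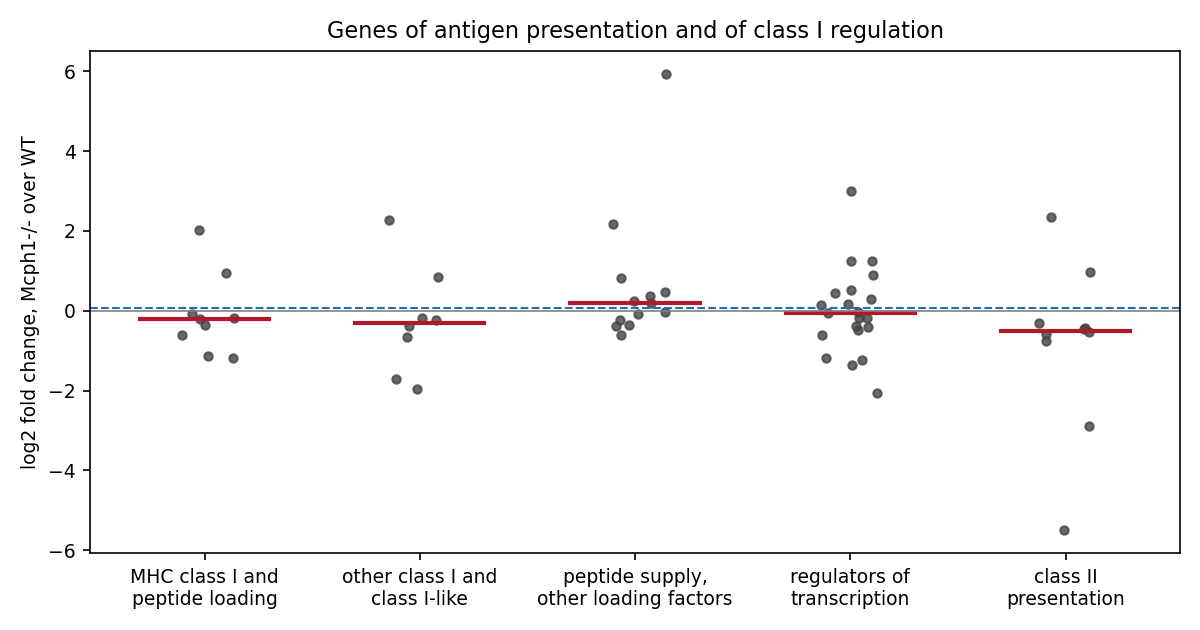
Log2 fold change (Mcph1-/- over WT) of each tested gene in the 5 lists, 1 point per gene, with the list's median as a red bar and the median of all tested genes (0.08) as a dashed line. The medians are -0.21 for the 9 genes, -0.31 for other class I genes, 0.20 for peptide supply, -0.06 for regulators and -0.50 for class II.

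Some marker transcripts of blood lineages, of progenitors and of dividing cells differed between the same groups of libraries. Of 14 neutrophil markers 7 had values, led by S100a8 and Ngp, with 6 lower and 1 higher by mean log2 value and 3 past the limma threshold. Their summed normalised read count was 3287 to 18724 in Mcph1-/- and 58564 to 67847 in WT. Groups overlapped for Elane, Mpo (log2 fold change 1.45) and Prtn3 (-0.37), which had 8095, 4856 and 5459 in Mcph1-/- replicate 3, the library with the sum of 18724. Elane, at 0 in a single Mcph1-/- library, averaged 2700 in Mcph1-/- and 1251 in WT. Of 10 monocyte and macrophage markers 5 had values, led by Lyz2 and Ms4a6c, with sums of 5144 to 5356 in Mcph1-/- and 8230 to 13061 in WT. That difference was mostly Lyz2, lysozyme (mean 4486 in Mcph1-/- and 10187 in WT), while Ms4a6c averaged 376 in Mcph1-/- and 378 in WT. C1qa (log2 fold change 4.47) and C1qb (2.74) had higher mean log2 values in Mcph1-/-, with groups that overlapped. Cd68 and C1qb were at 0 in WT replicate 1, and C1qa in WT replicates 2 and 3. Of 12 erythroid markers 11 had values, led by Car1 and Blvrb, with sums of 31378 to 39523 in Mcph1-/- and 4633 to 22251 in WT. Most of the Mcph1-/- sum was Car1, a carbonic anhydrase (mean 28533 in Mcph1-/- and 2724 in WT), and of the 11 genes 7 were higher and 4 lower. Car1 (log2 fold change 3.53, limma adjusted p = 0.024) was the only erythroid marker past the limma threshold. Car1, Klf1 (2.40), Gata1 (5.11) and Blvrb (0.92) were higher in every Mcph1-/- library than in any WT library. Gata1 was at 0 in WT replicate 3. Of the 11 genes 4 had this order and 3 the opposite, against 7.4% and 6.8% of all tested genes. The adult globin genes Hba-a1 (log2 fold change -3.40), Hba-a2 (-3.27) and Hbb-bs (-5.03) were lower in every Mcph1-/- library than in any WT library, and did not pass the limma threshold. Hbb-bt, the other adult globin gene listed, had 0.14 with overlapping groups. The WT globin level came mostly from WT replicate 3: in WT, Hba-a1 had 581, 251 and 8516 and Hbb-bs 65.1, 24.7 and 2257. All 12 genes of dividing cells, among them Birc5 and Ccnb2, had values and were higher by mean log2 value, 0 of them past the threshold and 7 at an unadjusted p under 0.05, with sums of 10264 to 13445 in Mcph1-/- and 4423 to 5751 in WT. Of 7 dendritic cell markers only Zbtb46 had values, at 202, 3.28 and 21.4 in Mcph1-/- and at 95.4, 0 and 20.2 in WT. Cd34, whose product the gate excludes, averaged 398 in Mcph1-/- and 410 in WT. Cd48, a progenitor marker that the stated gate does not use, averaged 654 in Mcph1-/- and 74.3 in WT, with no overlap (log2 fold change 4.05, SE 1.48; limma adjusted p = 0.626). The summed level of these 2, of 4 listed progenitor markers, was 866 to 1360 in Mcph1-/- and 320 to 631 in WT. Sums overlapped between genotypes for markers of platelets (led by Pf4 and Vwf, 1336 to 2605 in Mcph1-/- and 1902 to 5033 in WT) and B cells (led by Cd79b and Igll1, 525 to 5334 and 879 to 3476 in the same order). They also overlapped for T and natural killer cells (Nkg7 and Klrb1c, 912 to 1954 in Mcph1-/- and 540 to 2463 in WT), mast cells (Gata2 and Cpa3, 504 to 1639 and 862 to 2590 in the same order) and stroma (Pecam1, 25.0 to 227 and 99.8 to 404). The part of these cell types in the class I values was not tested.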

How the data were processed

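RNA-seq libraries of sorted mouse bone marrow stem cells were analysed, 3 Mcph1-/- and 3 WT. Per the submitters' processing notes, the build was mm10 and the tools were Trim Galore 0.6.6, HISAT2, featureCounts and DESeq2, without role or order. Annotation and strand setting are not stated in those notes. The authors deposited a signal: each library's gene reads over its size factor (0.922 to 1.22), as worked out from the values: 100% are whole multiples of 1 read within 0.001 reads, and whole reads were recovered. All listed genes have reads in 4 or more libraries.

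limma 3.58.1 (trend) was run on log2(value + 1), fitting genotype alone, over genes with a mean of at least 10. A fold change is on that log2 scale, which understates changes of low genes, except that a library at 0 pulls its group's mean log value down and can make the fold change larger than the means show, as for Tap2, Tapbpl and H2-Ob. edgeR 4.0.16, DESeq2 1.42.0 and limma-voom on recovered reads were alternatives, as were other pseudocounts, filters and scalings, a replicate block and leaving out each library. Shares were compared by exact permutation over libraries. PCR reads carry no molecular identifiers and are not independent, so the floor for 0 reads covers counting error only. Libraries of each genotype all differed beyond sampling noise (chi-square per degree of freedom at least 82.9).

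Positions are 1-based, from GENCODE vM21 (mm10), matched by gene identifier for 96.2% of genes. Promoters are RefSeq's (GRCm38.p6), from 250 bases before to 50 after the start. The members, lists and motifs were chosen with earlier results of these data known. All members were named, and of each class I or class II list the 4 genes with the smallest p and of each marker list the 2 most abundant, 1 of which is not reported here. Nlrc5 and the dividing-cell list, the 2 promoter boxes' spacing and the shares within the heavy chains were added after values were seen.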

Additional observations from a re-analysis of the deposited data

How the results depend on the processing

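The median log2 fold change of the 9 genes stayed negative in all 15 alternatives, at -0.31 to -0.14 when 1 library was left out and -0.21 to -0.18 in the others. Genes called over the whole table numbered 4, against 2 by edgeR, 234 by DESeq2 and 1 by limma-voom, and 1 to 4 without 1 library. Members called numbered 2 by DESeq2 and 0 in the other 14 alternatives. DESeq2 also called the H2-Q6 and H2-Q7 sum (-0.69). This sum was -0.81 to -0.45 and the heavy chain sum -0.45 to -0.24 without 1 library. H2-Q7 ranged from -0.33 to 0.16 without 1 library, turning to 0.14 without Mcph1-/- replicate 3 and 0.16 without WT replicate 2. Tap2 ranged from -0.60 (without WT replicate 2) to 3.41, and was -0.019 by DESeq2. The difference in the members' share of reads was -0.21 percentage points, -0.25 to -0.14 without 1 library, and -0.10 without B2m, where it sums fewer genes (exact permutation p = 0.2). The cause of the other changes was not tested. The median of all tested genes moved from 0.08 to 0.11 with TMM scaling and -0.03 by DESeq2.

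Deviations of same-numbered libraries correlated at -0.0139, 0.0176 and -0.0295, and not every library correlated best with its own number. Replicate numbers thus showed no pairing over all tested genes, though these correlations do not settle whether the libraries were paired. With the replicate block, 3 genes were called over the whole table and 0 members, and the lowest adjusted p of a member was 0.700. Tap2, at 0 to 239 reads per library, is the member that depth limits most.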

Other observations

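Other MHC genes outside the lists were chosen after their values were seen. H2-K2, a class I gene beside H2-K1, had a normalised read count of 473, 174 and 287 in Mcph1-/- and 589, 1135 and 475 in WT, or -1.25 as log2 fold change (SE 0.54; limma adjusted p = 0.646) with groups that did not overlap. H2-Q5, a further member of the H2-Q cluster, had 42.9, 260 and 223 in Mcph1-/- and 215, 275 and 80.0 in WT, which overlap. H2-Ke6 lies in the same region and encodes a metabolic enzyme with no role in presentation. It had 2102, 2244 and 1767 in Mcph1-/- and 3838, 2554 and 2166 in WT, which overlap. Its log2 fold change was -0.45 (SE 0.25, limma adjusted p = 0.667).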
